A study of Mus musculus with 12 samples.

Results

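The 9 genes described here make up a large part of the insulin-like growth factor (IGF) system of heart cells. They are the ligand gene Igf1, the receptor genes Igf1r and Insr, and the IGF binding protein genes Igfbp2, Igfbp3, Igfbp4, Igfbp5, Igfbp6 and Igfbp7. They were chosen by name from the 23423 genes of the deposited table, and all 9 were followed through its 12 libraries. The libraries form 6 groups of 2, all from CD1 mouse hearts at postnatal day 1.5. The fresh fibroblast group holds cells freed by enzyme digestion and sorted on magnetic columns for Thy1. The fresh cardiomyocyte group holds heart muscle cells prepared with a commercial neonatal isolation system. The other groups are Thy1-sorted fibroblasts plated on gelatin in serum medium, given virus on the next day, and collected 3 days later. The control vector group received a retrovirus that the sample titles name lacZ and other labels an empty vector. The MGT group received a retrovirus encoding Mef2c, Gata4 and Tbx5, a mix of transcription factors used to turn fibroblasts towards cardiomyocytes. The remaining groups received the MGT retrovirus together with a lentivirus carrying a short hairpin, either non-targeting (MGT + shNT) or against Ptbp1 (MGT + shPtbp1), an RNA-binding protein that regulates splicing. The hairpin groups thus differ from the MGT group by a second virus as well as by the hairpin. The source label of MGT + shPtbp1 replicate 2 names Ptbp2 whereas its title and its transduction label name Ptbp1.

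IGF1 and IGF2 bind the receptor tyrosine kinase encoded by Igf1r, which is closely related to the insulin receptor encoded by Insr, and both receptors signal through insulin receptor substrates to the PI3K-AKT and MAPK cascades. Secreted IGF binding proteins hold most of the IGF outside cells, can block or prolong its access to the receptor, and release it when proteases cut them. In the heart the pathway is known for its part in cardiomyocyte growth and survival, and stromal cells and macrophages are known sources of IGF1.

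The members lie on 7 chromosomes of the GRCm38 assembly, in the GENCODE M21 annotation. Igf1 was annotated at chr10:87858265-87937042 on the plus strand, Igf1r at chr7:67952827-68233668 on the plus strand, and Insr at chr8:3122061-3279617 on the minus strand. Igfbp2 at chr1:72824503-72852474 (plus strand) and Igfbp5 at chr1:72857932-72874884 (minus strand) are neighbours whose 3′ ends face each other across 5457 bases. Igfbp3 lies at chr11:7206086-7213923 on the minus strand, 3539 bases from Igfbp1. Igfbp4 was annotated at chr11:99041244-99054392 on the plus strand, Igfbp6 at chr15:102144362-102149511 on the plus strand, and Igfbp7 at chr5:77349240-77408041 on the minus strand. An exon of Igfbp7 overlaps an exon of Polr2b on the opposite strand, and Polr2b reached at most 62.8 scaled CPM in any library, far under Igfbp7.

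The start regions of Igfbp2, Igfbp5 and Igfbp4 are shown because Igfbp2 and Igfbp5 are neighbours that moved in opposite directions in culture, and because Igfbp4 had the largest drop of the 9 genes from MGT to MGT + shNT. Each window runs from 250 bases before to 50 bases after the annotated start, 5′ to 3′ on the gene's strand, from RefSeq on GRCm38.p6. Capitals mark the letters TATAAA, and the windows are chr1:72824230-72824529 (plus strand), chr1:72874816-72875115 (minus strand) and chr11:99040994-99041293 (plus strand) in the order printed.
Igfbp2: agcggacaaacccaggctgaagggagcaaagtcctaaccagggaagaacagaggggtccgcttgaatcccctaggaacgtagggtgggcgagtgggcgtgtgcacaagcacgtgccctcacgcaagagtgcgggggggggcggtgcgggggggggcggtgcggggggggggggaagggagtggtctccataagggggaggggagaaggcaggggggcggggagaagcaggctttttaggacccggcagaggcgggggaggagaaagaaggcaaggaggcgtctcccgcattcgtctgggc
Igfbp5: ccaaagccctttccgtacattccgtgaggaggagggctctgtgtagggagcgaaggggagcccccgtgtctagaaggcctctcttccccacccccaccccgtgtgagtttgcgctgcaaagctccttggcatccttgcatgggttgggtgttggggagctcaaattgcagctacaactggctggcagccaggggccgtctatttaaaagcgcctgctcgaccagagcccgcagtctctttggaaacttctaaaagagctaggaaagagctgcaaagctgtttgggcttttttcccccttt
Igfbp4: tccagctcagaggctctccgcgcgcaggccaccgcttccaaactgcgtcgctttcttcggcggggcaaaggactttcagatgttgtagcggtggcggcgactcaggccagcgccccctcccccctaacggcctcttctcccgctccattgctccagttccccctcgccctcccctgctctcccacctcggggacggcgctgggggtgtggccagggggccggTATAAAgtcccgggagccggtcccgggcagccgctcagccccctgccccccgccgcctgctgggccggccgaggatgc
The Igfbp4 window held TATAAA on the gene's own strand, 28 to 23 bases before the start. The Igfbp2 and Igfbp5 windows did not hold these letters. RefSeq windows were found for 8 of the 9 members, the exception being Insr, and for Igfbp2 there were 2 windows, of which the first is printed. All 9 windows were searched on both strands for TATAAA, for the GATA letters AGATAA, for the T-box letters AGGTGT, for the FoxO letters GTAAACA and for the MEF2 motif. A match to the MEF2 motif can contain TATAAA, so their shares can count the same bases. Of the 32851 windows of the whole table, 13.6% held TATAAA, 11.2% held AGATAA, 13.7% held AGGTGT, 3.65% held GTAAACA and 3.19% held the MEF2 motif. Among the member windows the matches were TATAAA in Igfbp4 and TATAAA on the opposite strand in Igfbp6, at 148 to 143 bases before its start. The GC content was 67.0% for Igfbp2, 56.3% for Igfbp5 and 71.3% for Igfbp4, against a median of 52.7% over all windows.

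Sequencing was deep, with 49320858 to 94005212 assigned reads per library, and the lowest count of any member in any library was 72 reads. The labels were checked against the targeted genes. Ptbp1 stood at 79.8 ± 1.85 scaled CPM (SD, n = 2) with shPtbp1 and 362 ± 3.62 with shNT, and Mef2c, Gata4 and Tbx5 were 1.93 to 2.74 times higher with MGT than with the control vector. The control vector group was itself above fresh fibroblasts in all 3 of these factors: Tbx5 stood at 661 ± 23.2 against 7.23 ± 0.415 scaled CPM, 91.5 times higher (limma adjusted p = 3.30e-25), Mef2c was 2.32 times higher and Gata4 1.64 times. The comparisons of MGT with the control vector and of the control vector with fresh fibroblasts thus both involve a group that was high in Tbx5, and the part of this in the results below was not tested. With shNT all 3 factors were lower than with MGT: Mef2c 1.57 times (limma adjusted p = 8.47e-11), Tbx5 1.17 times (0.00126) and Gata4 1.09 times (0.017). With shPtbp1 Mef2c was 1.40 times lower than with MGT (adjusted p = 5.36e-09), while Tbx5 and Gata4 had adjusted p of 0.141 and 0.0886. The hairpin groups thus also differ from MGT in these factors, and the part of this was not tested either. Scaled CPM are the deposited CPM, read counts relative to 1000000 assigned reads, divided by a library factor between 0.966 and 1.06. Sums over marker genes showed what else the groups held. The 10 fibroblast markers summed to 40930 to 41850 scaled CPM in fresh fibroblasts and 22220 to 22340 in the fresh cardiomyocyte group, so the latter also held fibroblast marker RNA. The 11 cardiomyocyte markers summed to 1906 to 1955 scaled CPM in the fresh fibroblasts and 18690 to 19420 in the cardiomyocytes. Endothelial markers (14 genes) summed to 4585 to 4644 scaled CPM in the fresh fibroblasts, 5523 to 5533 in the cardiomyocytes and 540 to 666 in all cultured libraries. In such mixed samples, fewer cells of a type and less RNA per cell cannot be told apart.

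All 9 members passed the filter of at least 1 CPM in 2 libraries, as did 13977 genes in all. Differences were tested with limma on log2(scaled CPM + 0.5) over these genes, two-sided, and a difference was called at a Benjamini-Hochberg adjusted p below 0.05. Between fresh cardiomyocytes and fresh fibroblasts, 2 members were higher and 5 lower, while 76.9% of all tested genes were called, 35.2% higher and 41.7% lower. Between control vector cultures and fresh fibroblasts, 5 were higher and 4 lower, against 86.9% of all genes called, 43.5% higher and 43.4% lower. MGT against the control vector gave 3 higher and 3 lower, beside 35.6% of all genes called, 17.9% higher and 17.7% lower. MGT + shNT against MGT gave 1 higher and 5 lower, beside 44.7% of all genes, 24.6% higher and 20.1% lower. MGT + shPtbp1 against MGT + shNT gave 4 higher and 1 lower, beside 34.8% of all genes, 16.7% higher and 18.1% lower. Against MGT it gave 3 higher and 4 lower, beside 44.3% of all genes, 24.3% higher and 20.0% lower. These shares of calls are high in every comparison, so that the size of a difference says more about a member than its being called. Sizes are set beside those of all genes only as a description, because the members were chosen with earlier results of these data known. Differences of low genes are also understated on this scale. The median absolute log2 difference of the 9 members was 0.32 between the fresh cell types, against 0.37 over all tested genes. It was 1.85 against 0.62 for the control culture, 0.25 against 0.12 for MGT, 0.28 against 0.14 for shNT against MGT, 0.25 against 0.12 for shPtbp1 against shNT, and 0.23 against 0.14 for shPtbp1 against MGT. Several comparisons share a group: fresh fibroblasts, the control vector, MGT, shNT and shPtbp1 each enter at least 2 of the 6, so their results are not independent.

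**Figure D1:**
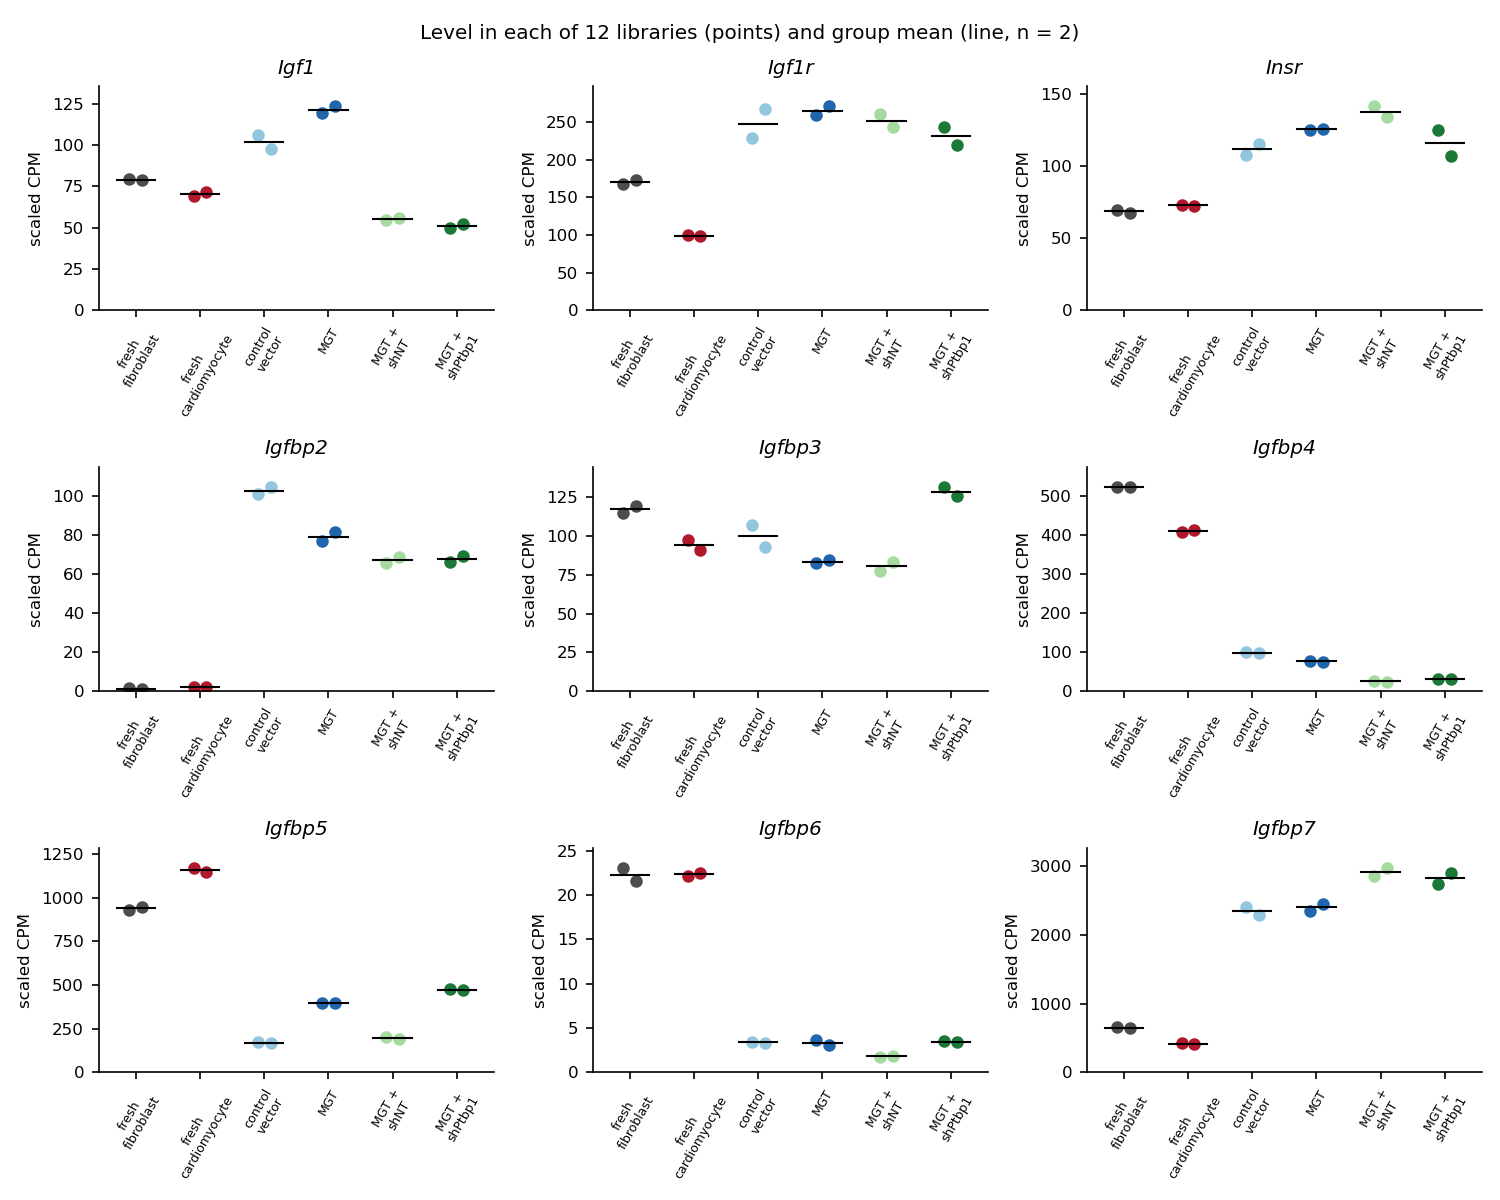
Level of each of the 9 genes in scaled CPM (y axis, from 0, scales differ) in the 6 groups (x axis), with 1 point per library and a line at the mean of the 2 libraries. Igfbp2 sits under 2.3 in the 4 fresh libraries and between 65.9 and 105 in the 8 cultured ones, whereas Igfbp4, Igfbp5 and Igfbp6 are highest in the fresh cells.

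Igf1, the gene of the IGF1 ligand, was highest in MGT cells and lowest in the cells that also received lentivirus. Its levels were 79.2 and 78.5 scaled CPM in fresh fibroblasts, 69.2 and 71.6 in fresh cardiomyocytes, 106 and 97.8 with the control vector, 119 and 123 with MGT, 54.4 and 55.7 with MGT + shNT, and 49.97 and 52.1 with MGT + shPtbp1. No group overlapped its neighbour in this order of levels. Igf1 fell by 1.13 on the log2 scale from MGT to MGT + shNT (SE 0.04, limma adjusted p = 6.57e-14) and by 1.24 from MGT to MGT + shPtbp1 (SE 0.04, adjusted p = 1.53e-14). The hairpin groups did not differ past the threshold (log2 difference -0.11, SE 0.04, adjusted p = 0.0539). Igf1 rose by 0.36 from fresh fibroblasts to the control culture (adjusted p = 1.41e-07) and by 0.25 from there to MGT (adjusted p = 0.000124). Fresh cardiomyocytes had slightly less Igf1 than fresh fibroblasts (log2 difference -0.16, adjusted p = 0.00177). The values are gene totals, and the transcript forms of Igf1, of which the annotation lists 8, were not separated.

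Macrophage markers fell where Igf1 fell with the lentivirus, but most did not rise with it from the control vector to MGT. The 14 markers summed to 1339 to 1350 scaled CPM in fresh fibroblasts, 902 to 915 in fresh cardiomyocytes, 4080 to 4298 with the control vector, 4171 to 4303 with MGT, 1457 to 1510 with MGT + shNT and 1611 to 1660 with MGT + shPtbp1. From MGT to MGT + shNT all 14 fell, and their sum was 2.86 times lower; among them the mannose receptor gene Mrc1 went from 252 to 31.8 scaled CPM and the complement gene C1qb from 182 to 30.4. All 14 also fell from MGT to MGT + shPtbp1, the sum being 2.59 times lower. From fresh fibroblasts to the control culture 10 rose and 3 fell, the largest rise being that of the lysozyme gene Lyz2, which has a near copy in Lyz1 and went from 162 to 2143 scaled CPM. Cd163, which marks resident macrophages, fell over that step from 13.6 to 0.297 scaled CPM. It was thus already low with the control vector, and it was under 0.1 scaled CPM in all 4 hairpin libraries. From the control vector to MGT, where Igf1 rose, 1 marker rose and 7 fell (median log2 difference -0.14) and the sum was 1.01 times as high. The fresh fibroblast sum was also below that of MGT + shNT, whereas Igf1 was higher in fresh fibroblasts. This sum is weighted by its most abundant genes, Lyz2 alone being 2143 of the 4080 to 4298 scaled CPM with the control vector. Single markers could differ from it: Mrc1 was 178 scaled CPM in fresh fibroblasts against 31.8 with MGT + shNT, and Cx3cr1 78.1 against 1.46. How many of the 14 did so was not counted for this pair of groups. The part of these markers in the levels of Igf1 was not tested.

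**Figure D2:**
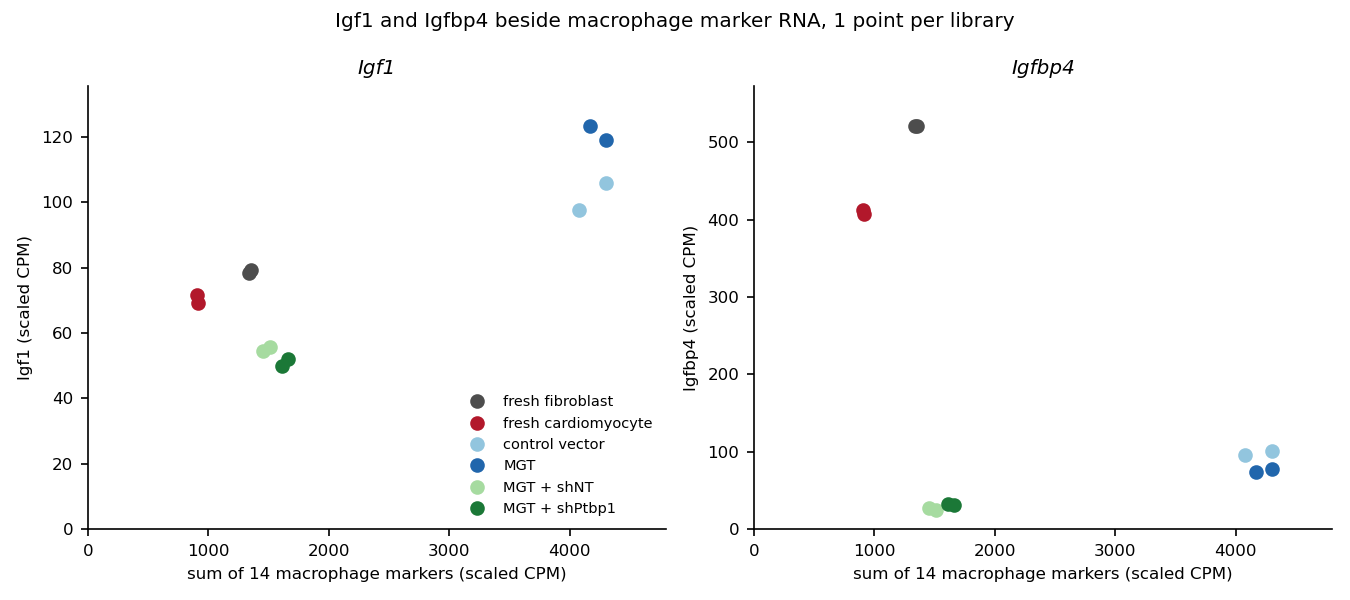
Igf1 (left) and Igfbp4 (right) in scaled CPM (y axes, from 0) against the sum of 14 macrophage markers in scaled CPM (x axis), 1 point per library, coloured by group. Among cultured libraries both genes are lower where the sum is 1457 to 1660 than where it is 4080 to 4303. Fresh fibroblasts have 1339 to 1350 on the x axis and the highest Igfbp4. The sum is weighted by Lyz2, which rose from 162 scaled CPM in fresh fibroblasts to 2143 with the control vector, so single markers can differ from it.

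The other IGF ligand and the remaining receptors set these values in context. Igf2, the fetal growth factor gene, was 3503 ± 52.2 scaled CPM (SD, n = 2) in fresh fibroblasts and 5152 ± 0.367 in fresh cardiomyocytes. In control cultures it was 75.7 ± 3.82, which is 46.2 times lower than in fresh fibroblasts (log2 difference -5.52, SE 0.04, adjusted p = 2.36e-25). It was 90.2 ± 2.31 with MGT, 142 ± 0.0182 with shNT and 148 ± 5.78 with shPtbp1, and it rose from MGT to either hairpin group by 0.65 and 0.71 on the log2 scale. Per kb of exon, Igf2 was 75.7 to 78.0 times the level of Igf1 in fresh fibroblasts and 125 to 129 times in fresh cardiomyocytes. That ratio was 1.20 to 1.39 with the control vector and with MGT, and 4.42 to 5.04 in the hairpin groups. Igf2r, whose product clears IGF2, went from 1030 ± 13.1 scaled CPM in fresh fibroblasts to 585 ± 42.2 in control cultures, 1.76 times lower (adjusted p = 4.55e-11). Ghr, the growth hormone receptor gene, rose 1.82-fold over the same step, from 71.8 ± 1.28 to 131 ± 1.85 scaled CPM (adjusted p = 4.00e-14).

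Igf1r, the gene of the main IGF receptor, was lowest in fresh cardiomyocytes and about equal in all cultured groups. Its levels were 168 and 173 scaled CPM in fresh fibroblasts, 99.5 and 98.9 in fresh cardiomyocytes, 229 and 268 with the control vector, 260 and 271 with MGT, 261 and 243 with shNT and 244 and 220 with shPtbp1. The fresh groups lay below every cultured library, and the cultured groups overlapped with their neighbours in level. Igf1r was 1.72 times lower in fresh cardiomyocytes than in fresh fibroblasts (log2 difference -0.78, SE 0.06, adjusted p = 4.75e-10), and it rose by 0.54 in control culture (adjusted p = 5.82e-08). MGT against the control vector (0.10, adjusted p = 0.191), shNT against MGT (-0.08, adjusted p = 0.317) and shPtbp1 against shNT (-0.12, adjusted p = 0.122) missed the threshold. The first was 0.22 and called without control vector replicate 2 (adjusted p = 0.00452) and -0.01 without control vector replicate 1 (adjusted p = 0.872), and the third was -0.19 and called without shPtbp1 replicate 1 (adjusted p = 0.0286). A fall of 0.20 from MGT to shPtbp1 (adjusted p = 0.0104) was lost without MGT replicate 2 (adjusted p = 0.0951) and without shPtbp1 replicate 2 (adjusted p = 0.149).

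Insr, the insulin receptor gene, was low and near equal in both fresh cell types and higher in culture. It measured 69.4 and 67.8 scaled CPM in fresh fibroblasts, 73.4 and 72.5 in fresh cardiomyocytes, 108 and 115 with the control vector, 125 and 126 with MGT, 142 and 134 with shNT and 125 and 107 with shPtbp1. Only the shPtbp1 and control vector libraries overlapped among groups that are neighbours in level. Insr rose by 0.70 from fresh fibroblasts to control culture (SE 0.05, adjusted p = 2.92e-10). It fell by 0.25 from shNT to shPtbp1 (SE 0.05, adjusted p = 0.00121), and by 0.14 without shPtbp1 replicate 2 (adjusted p = 0.0364). The rise of 0.17 with MGT over the control vector (adjusted p = 0.0177) was lost without control vector replicate 1 (adjusted p = 0.141), without MGT replicate 1 (adjusted p = 0.065) and without MGT replicate 2 (adjusted p = 0.0956). The differences between fresh cell types (0.09, adjusted p = 0.138), between shNT and MGT (0.13, adjusted p = 0.0515) and between shPtbp1 and MGT (-0.12, adjusted p = 0.0822) were not called; the second was called without shNT replicate 2 (adjusted p = 0.0475) and the third without shPtbp1 replicate 1 (adjusted p = 0.000848). Per kb of exon, the ratio of Igf1r to Insr was 1.98 and 2.09 in fresh fibroblasts, 1.11 and 1.12 in fresh cardiomyocytes and 1.49 to 1.90 in culture. Fresh cardiomyocytes were thus the group in which the receptor genes were nearest to each other in level.

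**Figure D3:**
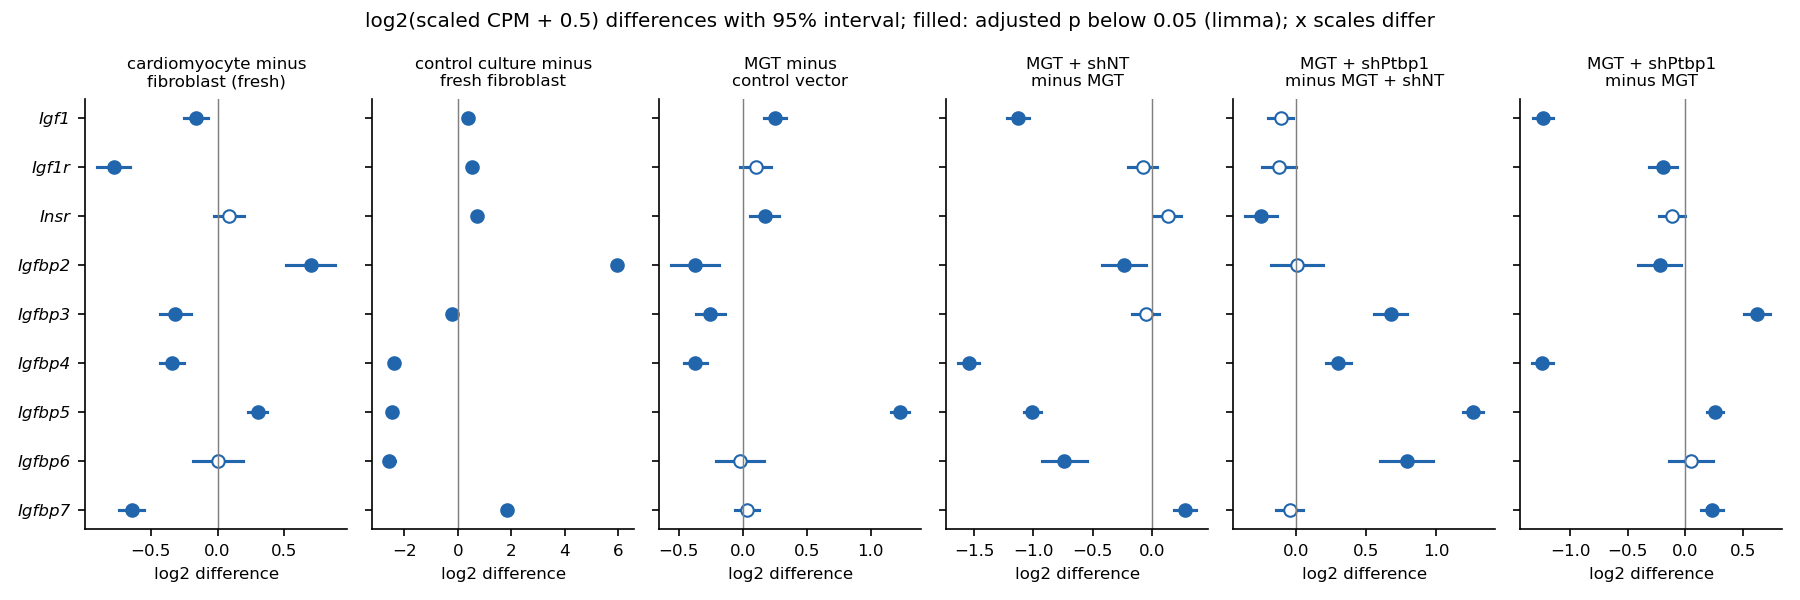
Differences in log2(scaled CPM + 0.5) for the 9 genes (rows) in the 6 comparisons (panels), with the 95% interval of limma as a bar. Filled points have an adjusted p below 0.05, x scales differ between panels, and Igfbp5 is at 1.23 with MGT, -1.01 with shNT against MGT and 1.26 with shPtbp1 against shNT.

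Igfbp5, whose product is held largely in the extracellular matrix, changed in all 6 comparisons. Its levels were 933 and 946 scaled CPM in fresh fibroblasts, 1169 and 1146 in fresh cardiomyocytes, 171 and 166 with the control vector, 395 and 397 with MGT, 199.9 and 193 with shNT and 476 and 470 with shPtbp1. No group overlapped another next to it in level, and replicates lay close together. Igfbp5 was 5.57 times lower in control culture than in fresh fibroblasts (log2 difference -2.47, SE 0.03, adjusted p = 8.63e-22). Endothelial markers moved with this step, as all 14 fell from fresh fibroblasts to control culture and their sum was 7.49 times lower, and their part in the falls of Igfbp5, Igfbp4 and Igfbp6 was not tested. It rose 2.35-fold with MGT over the control vector (1.23, SE 0.03, adjusted p = 7.10e-15), the difference ranking 54 of 13977 genes by size. With shNT it was 2.02 times lower than with MGT alone (-1.01, SE 0.03, adjusted p = 1.43e-14). With shPtbp1 it was 2.41 times higher than with shNT (1.26, SE 0.03, adjusted p = 5.63e-15), which ranked 25 of 13977. The level with shPtbp1 was 1.19 times that with MGT alone (0.26, SE 0.03, adjusted p = 5.67e-06), and so on the level scale shPtbp1 cells stood nearer to MGT cells than to the shNT cells that share their lentivirus. Fresh cardiomyocytes exceeded fresh fibroblasts by 0.30 on the log2 scale (adjusted p = 1.64e-07), or by 0.19 under quantile normalization. Cardiomyocyte markers also moved with MGT and shPtbp1: 8 of 11 rose and 1 fell with MGT over the control vector, and 7 rose and 0 fell with shPtbp1 over shNT. Their sums were 2603 to 2784 scaled CPM with the control vector, 3840 to 4041 with MGT, 3827 to 4074 with shNT and 4553 to 4846 with shPtbp1. The sums with MGT and with shNT overlapped while Igfbp5 differed between these groups. These sums are weighted by Tnnt2, which alone was 3307 scaled CPM with shNT. Of the 11 markers, 2 rose and 3 fell from MGT to shNT, with Actc1 going from 229 to 135 scaled CPM. The part of the markers in the Igfbp5 levels was not tested.

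Igfbp4, whose product inhibits IGF action and is cut by pappalysin-1, was highest in fresh cells and lowest in the cells with lentivirus. Its levels were 521 and 521 scaled CPM in fresh fibroblasts, 407 and 413 in fresh cardiomyocytes, 100.4 and 96.4 with the control vector, 78.3 and 73.6 with MGT, 26.8 and 24.6 with shNT and 32.2 and 31.4 with shPtbp1. No group overlapped its neighbour in level. Igfbp4 was 5.29 times lower in control culture than in fresh fibroblasts (log2 difference -2.40, SE 0.04, adjusted p = 3.78e-20), and it fell by a further 0.37 with MGT (adjusted p = 1.66e-06). It was 2.96 times lower with shNT than with MGT (-1.55, SE 0.04, adjusted p = 8.60e-16), ranking 177 of 13977 by size. It rose by 0.30 from shNT to shPtbp1 (SE 0.04, adjusted p = 1.92e-05) and remained 1.24 on the log2 scale below MGT there (adjusted p = 1.66e-14). Of the 14 macrophage markers, 1 rose and 9 fell between shNT and shPtbp1, where Igfbp4 rose. The sum of all 14, however, was higher with shPtbp1, at 1611 to 1660 scaled CPM against 1457 to 1510 with shNT. From MGT to shNT, where Igfbp4 fell, all 14 markers fell. In fresh fibroblasts Igfbp4 was 5.29 times its control culture level while the macrophage sum was 3.12 times lower. Over that step into culture 10 of the markers rose and 3 fell. The part of these markers in the Igfbp4 levels was not tested. Igfbp4 was also lower in fresh cardiomyocytes than in fresh fibroblasts (-0.34, adjusted p = 5.71e-07).

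Igfbp2, whose product is abundant in fetal tissues and carries an integrin-binding motif, was nearly absent from fresh cells and present in every culture. It measured 1.42 and 0.939 scaled CPM in fresh fibroblasts and 2.20 and 2.20 in fresh cardiomyocytes, from 72 to 167 reads. In culture it measured 101 and 105 with the control vector, 77.1 and 81.5 with MGT, 65.9 and 68.8 with shNT and 66.1 and 69.5 with shPtbp1. The fresh and cultured libraries were far apart, and the hairpin groups overlapped. The control culture level was 87.2 times that of fresh fibroblasts (log2 difference 5.96, SE 0.09, adjusted p = 2.45e-21), the difference ranking 52 of 13977. Igfbp2 fell by 0.37 with MGT against the control vector (SE 0.09, adjusted p = 0.00262). The hairpins did not differ past the threshold (0.01, interval -0.18 to 0.19, adjusted p = 0.951). Falls of 0.23 from MGT to shNT (adjusted p = 0.0379) and of 0.22 from MGT to shPtbp1 (adjusted p = 0.0463) were each lost without any 1 of the 4 libraries compared, with adjusted p of 0.0705 to 0.225. Fresh cardiomyocytes exceeded fresh fibroblasts by 0.70 (adjusted p = 7.60e-07), or by 0.40 with a pseudocount of 2, and both levels were low. Over the step into culture Igfbp2 rose as its neighbour Igfbp5 fell, and the ratio of Igfbp5 to Igfbp2 per kb went from 202 and 310 in fresh fibroblasts to 0.521 and 0.488 with the control vector. That ratio was 1.576 and 1.498 with MGT, 0.933 and 0.863 with shNT and 2.21 and 2.08 with shPtbp1.

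Igfbp7, a more distant relative that binds IGFs weakly, was the most abundant binding protein gene in culture. Its levels were 657 and 643 scaled CPM in fresh fibroblasts, 422 and 410 in fresh cardiomyocytes, 2410 and 2288 with the control vector, 2353 and 2448 with MGT, 2852 and 2969 with shNT and 2747 and 2896 with shPtbp1. The control vector and MGT libraries overlapped, as did the hairpin groups with each other, and the 3 tiers of fresh, single-virus and hairpin libraries did not. Igfbp7 rose 3.61-fold from fresh fibroblasts to control culture (log2 difference 1.85, SE 0.05, adjusted p = 4.95e-18). The 9 pericyte and smooth muscle markers were divided over this step: 3 rose and 6 fell, while their sum was 3.39 times higher, at 7838 to 8116 against 2331 to 2371 scaled CPM. The actin-binding protein gene Tagln rose from 113 ± 1.56 to 2027 ± 9.45 scaled CPM, and the pericyte channel genes Abcc9 and Kcnj8 fell from 273 ± 2.57 to 1.79 ± 0.205 and from 46.6 ± 0.314 to 0.349 ± 0.207. Rgs5, another pericyte marker, fell from 178 ± 6.45 to 2.52 ± 0.188. The part of these markers in the rise of Igfbp7, or in the falls of Igfbp4, Igfbp5 and Igfbp6, was not tested. It rose by 0.28 from MGT to shNT (adjusted p = 5.66e-05) and by 0.23 from MGT to shPtbp1 (adjusted p = 0.00037), the latter by 0.41 under quantile normalization. Neither MGT against the control vector (0.03, interval -0.06 to 0.13, adjusted p = 0.637) nor shPtbp1 against shNT (-0.05, interval -0.14 to 0.05, adjusted p = 0.486) was called; quantile normalization called both as higher, at 0.13 and 0.15, the second with the sign turned. Fresh cardiomyocytes had 1.56 times less than fresh fibroblasts (-0.64, adjusted p = 2.01e-10).

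Igfbp3, the gene of the main IGF carrier of blood plasma, had the narrowest relative range of the 9. Over the 12 libraries it ran from 77.5 to 131 scaled CPM, the highest being 1.69 times the lowest. It measured 115 and 120 in fresh fibroblasts, 97.1 and 90.9 in fresh cardiomyocytes, 107 and 92.6 with the control vector, 82.4 and 84.3 with MGT, 77.5 and 83.2 with shNT and 131 and 126 with shPtbp1. The shPtbp1 libraries lay above all others. Igfbp3 rose 1.60-fold from shNT to shPtbp1 (log2 difference 0.68, SE 0.05, adjusted p = 2.27e-08) and by 0.62 from MGT to shPtbp1 (SE 0.05, adjusted p = 2.23e-08). The shNT and MGT libraries overlapped (-0.05, interval -0.17 to 0.06, adjusted p = 0.462). It fell by 0.23 in control culture (adjusted p = 0.000583; 0.13 without control vector replicate 2) and by 0.25 with MGT over the control vector (adjusted p = 0.00125; 0.15 without control vector replicate 1). Fresh cardiomyocytes had less than fresh fibroblasts (-0.32, adjusted p = 3.45e-05).

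Igfbp6, whose product prefers IGF2 over IGF1, was low throughout culture. It measured 23.0 and 21.6 scaled CPM in fresh fibroblasts, 22.2 and 22.4 in fresh cardiomyocytes, 3.37 and 3.34 with the control vector, 3.57 and 3.04 with MGT, 1.77 and 1.78 with shNT and 3.49 and 3.36 with shPtbp1. The fresh cell types overlapped, and the shNT libraries lay below all others. Igfbp6 was 6.64 times lower in control culture than in fresh fibroblasts (log2 difference -2.56, SE 0.09, adjusted p = 1.55e-15). It fell by 0.74 from MGT to shNT (SE 0.09, adjusted p = 1.86e-06) and rose by 0.79 from shNT to shPtbp1 (SE 0.09, adjusted p = 1.82e-06), or by 0.49 and 0.53 in size with a pseudocount of 2. The differences between fresh cell types (0.00, interval -0.19 to 0.19, adjusted p = 0.979), between MGT and control (-0.02, adjusted p = 0.877) and between shPtbp1 and MGT (0.05, interval -0.14 to 0.24, adjusted p = 0.705) were not called. In these cells Igfbp5 and Igfbp6 were both lower with shNT than with MGT and both higher with shPtbp1 than with shNT, though Igfbp6 was measured at much lower levels. Igfbp1, the liver-type family member, had 0 to 6 reads per library, at most 0.0688 scaled CPM, and was not tested.

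Divided by exon length, the 6 binding protein genes were summed to compare their levels with each other. The sum was 875 and 866 scaled CPM per kb in fresh fibroblasts, 688 and 674 in fresh cardiomyocytes, 2137 and 2031 with the control vector, 2101 and 2181 with MGT, 2460 and 2559 with shNT and 2440 and 2562 with shPtbp1. Igfbp7 made up 62.1% and 61.5% of it in fresh fibroblasts and 50.7% and 50.3% in fresh cardiomyocytes. In culture Igfbp7 was 92.6% to 96.0% of the sum, so the higher total there is that of 1 gene. Of the rest, Igfbp5 held 17.8% and 18.2% in fresh fibroblasts and 28.3% and 28.3% in fresh cardiomyocytes, and Igfbp4 held 13.4% to 13.9% in the 4 fresh libraries. With the control vector Igfbp2 led the 5 genes other than Igfbp7, at 2.56% and 2.79%. The share of these 5 genes together was 6.70% and 6.83% with the control vector, 7.37% and 7.18% with MGT, 4.12% and 4.03% with shNT and 6.86% and 6.49% with shPtbp1.

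**Figure D4:**
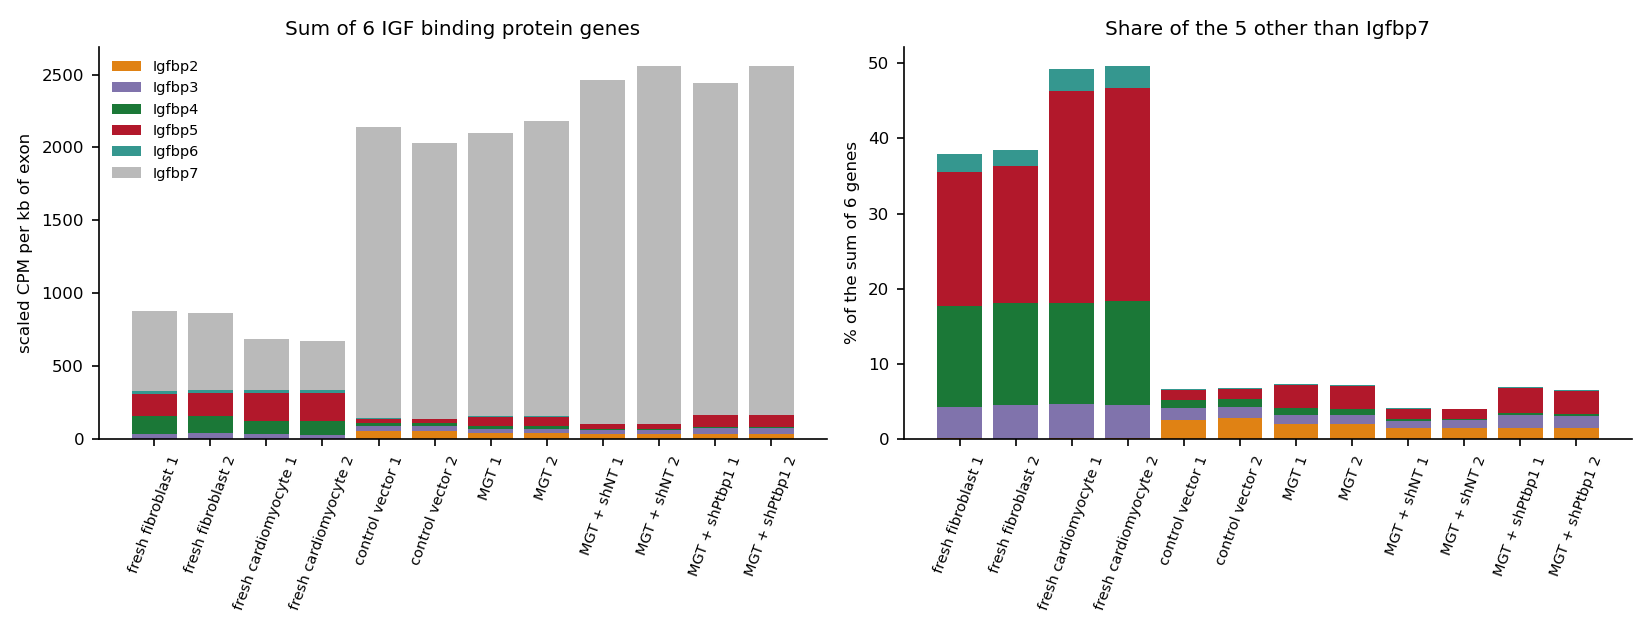
Left, scaled CPM per kb of exon summed over 6 IGF binding protein genes (y axis, from 0), stacked by gene, 1 bar per library. Right, the share in % held by each of the 5 genes other than Igfbp7, which falls from 37.9% and 38.5% in fresh fibroblasts to between 4.03% and 7.37% in culture.

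Genes for proteases that cut the binding proteins, and for their regulators, were followed as a list of 10, of which 9 were tested. From fresh fibroblasts to control culture 4 rose and 5 fell (median log2 difference -0.30, against 0.00 over all tested genes). Pappa, the gene of the Igfbp4 protease pappalysin-1, rose from 8.24 ± 0.871 to 127 ± 9.79 scaled CPM (SD, n = 2), 15.4-fold (adjusted p = 4.06e-19). Stc2, whose product inhibits pappalysins, rose from 9.61 ± 0.215 to 64.6 ± 1.82 (adjusted p = 2.61e-18), and its relative Stc1 fell from 20.6 ± 0.207 to 2.14 ± 0.00206. Htra3, a secreted serine protease gene, was 37.9 times lower in control culture, at 7.22 ± 0.228 against 274 ± 1.46 (adjusted p = 8.79e-23). Igfbp4 RNA fell over this step, and it also fell with MGT over the control vector, where Pappa fell too. Protein was not measured, and a link between these genes was not tested. With MGT 2 rose and 4 fell: Pappa fell to 88.9 ± 0.228 and Stc2 rose to 90.5 ± 2.40. With shNT over MGT 4 rose and 0 fell, led by Htra1, from 303 ± 11.3 to 405 ± 6.86. With shPtbp1 over shNT 3 rose and 3 fell, and Pappa fell from 94.4 ± 6.34 to 67.9 ± 7.98 (adjusted p = 0.000138). With shPtbp1 over MGT 6 rose and 2 fell. Fresh cardiomyocytes had 0 higher and 7 lower than fresh fibroblasts, Htra3 being 2.62 times lower and the metalloprotease gene Adam12 2.05 times lower.

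The insulin and IGF signalling list of 40 genes, from receptor substrates to mTOR and ERK kinases, showed no shift of its median beyond 0.08 on the log2 scale in any of the 6 comparisons. In control culture 18 rose and 17 fell. The receptor substrate genes were lower there: Irs2 went from 81.6 ± 0.307 to 17.1 ± 2.16 scaled CPM, 4.76 times lower (adjusted p = 1.46e-16), and Irs1 from 93.2 ± 0.913 to 26.7 ± 0.573, 3.49 times lower (adjusted p = 1.05e-17). Eif4ebp1, a translation repressor controlled by mTOR, rose 3.89-fold, from 40.2 ± 1.94 to 156 ± 0.565. With MGT 8 rose and 10 fell, and the receptor adaptor gene Grb14, which dampens insulin signalling, rose 2.11-fold from 11.3 ± 0.528 to 23.8 ± 0.361 (adjusted p = 2.81e-09). Grb14 then fell to 16.7 ± 0.662 with shNT (17 of the list rose and 6 fell) and was 23.7 ± 0.200 with shPtbp1 (5 rose and 14 fell against shNT). The regulatory PI3K subunit gene Pik3r1 fell from 99.1 ± 3.09 with shNT to 71.6 ± 2.89 with shPtbp1 (adjusted p = 2.03e-07). With shPtbp1 over MGT 13 rose and 7 fell. Between fresh cell types 12 were higher and 17 lower in cardiomyocytes, where Grb14 was 2.69 times higher.

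FoxO factors are held out of the nucleus by insulin and IGF signalling, and 17 genes of FoxO factors and their known targets were followed. In control culture 6 rose and 10 fell (median -0.34), Foxo1 going from 72.4 ± 0.216 to 24.4 ± 0.590 scaled CPM, 2.97 times lower (adjusted p = 1.74e-17). With MGT 9 rose and 3 fell (median 0.24, against -0.01 over all genes), and Foxo1 rose 1.70-fold to 41.4 ± 0.431 (adjusted p = 9.20e-11). With shNT over MGT 7 rose and 5 fell, the growth arrest gene Gadd45a from 22.5 ± 1.34 to 12.3 ± 0.354 (adjusted p = 2.57e-09). With shPtbp1 over shNT 6 rose and 2 fell (median 0.13), among them Foxo1, from 32.2 ± 0.325 to 44.7 ± 0.426 (adjusted p = 6.25e-08), and Gadd45a, to 17.2 ± 0.269. With shPtbp1 over MGT 8 rose and 4 fell. Fresh cardiomyocytes had 11 higher and 3 lower (median 0.27), led by the muscle ubiquitin ligase gene Trim63, at 50.4 ± 3.56 against 4.56 ± 0.487. Trim63 is itself a gene of heart muscle.

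Genes whose pattern was most like that of each member were ranked by Pearson's r of log2(scaled CPM + 0.5) among 10439 genes, as a description over libraries that share their groups and their cells. Over the 12 libraries Igf1 was nearest to Lilrb4 (r = 0.988), Sfpi1 (0.983) and Gp49a (0.981), of which Lilrb4 and Gp49a are close copies. Igf1r was nearest to Sfxn3 (r = 0.992), Prrx1 (0.992) and Sel1l (0.992), and Insr to G3bp2 (0.988), Usp47 (0.987) and Chp1 (0.986). Igfbp2 was nearest to Npc2, Pigh and Asns (r = 0.998 for each), and Igfbp4 to Neurl3 (0.993), Kctd12 (0.992) and Rasgrp3 (0.991). The genes nearest to Igfbp5 were Arhgap29 (r = 0.987), Foxo1 (0.983) and Galnt18 (0.982), and those nearest to Igfbp6 were Csgalnact1 (0.994), Prrg3 (0.994) and Fabp4 (0.994). Igfbp7 was nearest to Hs1bp3 (r = 0.999), Arhgap1 (0.999) and Pmepa1 (0.998). Igfbp3 had the least close partners, in Appl2 (r = 0.923), Ppib (0.860) and Phkg2 (0.858).

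Over the 8 cultured libraries alone, where the step from fresh to cultured cells plays no part, the nearest genes were others for each member. Igf1 was nearest to Ctsb (r = 0.998), Ccl3 (0.998) and Txnip (0.997), and Igfbp4 to Card9 (1.00), Steap3 (0.997) and Hvcn1 (0.997). The partners of Igfbp5 were Enox1 (r = 0.993), Fgf18 (0.990) and Pianp (0.989), those of Igfbp6 were Aggf1 (0.992), Elac1 (0.989) and Uba2 (0.983), and those of Igfbp3 were Mettl22 (0.988), Maged2 (0.979) and Naa60 (0.977). Igfbp2 was nearest to Kctd15 (r = 0.995), Pnp (0.994) and Gpn1 (0.992), and Igfbp7 to Plekha3 (0.992), Rab5a (0.991) and Zfp449 (0.989). For the receptor genes the values were lower, with Bmpr2 (r = 0.982), Zfhx3 (0.969) and Rbm14 (0.946) for Igf1r and Dst (0.976), Pou2f1 (0.971) and Srrm2 (0.966) for Insr.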

How the data were processed

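Polyadenylated RNA of 12 libraries was sequenced with a stranded kit, per the labels' protocols. Per the submitters' processing notes the tools were FastQC, TopHat2 2.1.0 and HTSeq 0.6.1p1 with mm10, while annotation and strand setting are both not given in the sources used here. The authors deposited 1 table of CPM (counts relative to 1000000 assigned reads) for 23423 genes, and its columns were matched to samples by name. Dividing by the value of 1 read (0.0106 to 0.0203 CPM) gave whole reads within 0.1 for 100% of values. Of the rows, 27 carry numeric names and stayed in the tests unnamed.

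CPM were divided by median-of-ratios factors, and the 13977 genes reaching 1 CPM in 2 libraries or more entered the fit. Values on the log2(scaled CPM + 0.5) scale, on which fold changes of low genes are understated, were fitted with limma 3.58.1 (R 4.3.3, trended prior, 12 libraries, 6 residual degrees of freedom) with a script tested on simulated data. Adjusted p-values are Benjamini-Hochberg values over all of these genes. Folds are ratios of mean scaled CPM. Levels per kb use the union of annotated exons. Whole reads were also tested with edgeR 4.0.16. Other alternatives were other scalings, pseudocounts, filters and priors, the 4 compared libraries alone, a replicate block and leaving out each library. Whether replicates came from separate animals or cultures is not in the labels, and the p-values therefore measure only the spread between these samples, which may be technical.

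The members and gene lists were chosen with earlier results of these data known. From each list up to 4 genes per comparison were eligible to be named, namely the called genes with the largest differences whose libraries did not overlap and whose higher mean was 10 scaled CPM or more, and Igf2, Igf2r and Igfbp1 were always named. The 3 genes nearest to each member by Pearson's r were named among genes whose highest group mean reached 10 scaled CPM. Older symbols stand in the table for Hras, Rack1 and Adgre1. Figures were drawn with matplotlib 3.10.9.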

Additional observations from a re-analysis of the deposited data

How the results depend on the processing

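Of 810 values of single members under the alternatives, 763 kept their sign and their side of the threshold, 24 lost their call, 11 gained one with the same sign and 12 changed sign. None of the 12 was called in the test reported, and 11 were not called under the alternative either. The other one was Igfbp7 with shPtbp1 against shNT, at 0.15 under quantile normalization (adjusted p = 0.0111) and -0.05 as reported. The cause was not tested. With shNT against MGT, the members called higher were 2 in place of 1 without scaling beyond CPM, with a filter at 5 CPM, in a fit of the 4 libraries alone and with a robust prior, and 1 to 2 when each library was left out (2 without shNT replicate 2); the added gene was Insr. With shPtbp1 against MGT, the members called lower were 2 in place of 4 without a filter on low values, and 2 to 4 when each library was left out (2 without MGT replicate 2 and without shPtbp1 replicate 2); Igf1r and Igfbp2 were the genes lost. With MGT against the control vector, members called higher ranged from 2 to 4 when each library was left out, against 3. With shPtbp1 against shNT, members called lower ranged from 1 to 2 when each library was left out, Igf1r being added without shPtbp1 replicate 1. Genes called lower over the whole table numbered 1598 to 2247 with MGT when each library was left out, against 2475, with 1598 without MGT replicate 2. They numbered 1687 to 2325 with shPtbp1 against shNT, against 2531, with 1687 without shNT replicate 1.

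The edgeR test on whole reads called 10683 genes between fresh cell types, 12187 for control culture, 5156 for MGT, 6166 for shNT against MGT, 4936 for shPtbp1 against shNT and 6050 for shPtbp1 against MGT, against 10755, 12142, 4972, 6241, 4870 and 6195 with limma. For control culture against fresh fibroblasts, the median log2 difference of all genes was 0.00 as reported, -0.10 without scaling and 0.11 under quantile normalization, and all 9 members kept their direction and call. The labels give groups the same replicate numbers without saying that a number marks a shared animal or day. Deviations of same-numbered libraries correlated at -0.136 to 0.162 over 15 pairs of groups, 10 of them negative. A replicate block left the member counts at 2 higher and 5 lower between fresh cell types, 5 and 4 for control culture, 3 and 3 for MGT, 1 and 5 for shNT against MGT and 4 and 1 for shPtbp1 against shNT. With shPtbp1 against MGT it gave 3 and 3, the call lost being that of Igfbp2 (-0.22, adjusted p = 0.0551). Every member had at least 72 reads in every library, and each group has 2 libraries.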
